A study of Mus musculus with 20 samples.

Results

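Spermatogonia, at the base of the seminiferous tubule, multiply by mitosis, and their last division yields pre-leptotene cells, in which the premeiotic round of DNA synthesis takes place. The comparison described here set the 3 arrays of sorted pre-leptotene cells against the 4 arrays of sorted spermatogonia, 7 of the 20 arrays of the series, chosen by their titles alone. All cells came from the testes of adult C57BL/6 x DBA/2J F1 males aged 10 to 16 weeks, untreated and of 1 genotype, and were separated by the red and blue fluorescence of the DNA dye Hoechst. This dye separates cells by DNA content and chromatin state, so neither fraction was selected on a germ cell surface marker. Each array measured RNA pooled from several sorts, and the labels call the replicates biological. The other 13 arrays covered leptotene-zygotene, early-, mid- and late-pachytene, diplotene and round spermatid cells, and are used here only for the spread between replicates and as levels of later stages.

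In the adult testis, undifferentiated spermatogonia renew themselves and give rise to differentiating spermatogonia, which divide several times with incomplete cytokinesis before the last of them become pre-leptotene spermatocytes. Retinoic acid acts at both steps and induces STRA8, which is needed for entry into meiosis. The tissue between the tubules holds Leydig cells, blood vessels, fibroblasts and many macrophages, some of which lie against the tubule wall beside the spermatogonia. Round and elongating spermatids, at the other end of the tubule epithelium, make large amounts of transition protein, protamine and sperm tail mRNAs.

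Values are log2 of the deposited GC-RMA signal of each probe set, and each change is the mean of the pre-leptotene arrays minus the mean of the spermatogonia arrays on that scale, given with its standard error. A probe set was tested if its log2 signal was at least 5 in at least 2 of the 7 arrays, which left 18926 of 45037 probe sets. A probe set was called when its limma p-value, adjusted by Benjamini-Hochberg over all 18926, was under 0.05. The arrays also carry a project code, and pre-leptotene arrays 1, 2 and 3 shared their project (2, 5 and 8) with spermatogonia arrays 1, 2 and 4. A second fit with the project as a block is therefore given beside the first wherever it changes a call. Spermatogonia array 3 was the only one of the 7 arrays in project 7, so it adds nothing to the blocked difference.

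The 7 arrays were alike in overall signal, with median signals between 11.1 and 12.1 and with 37.9% to 39.6% of all probe sets at log2 5 or more. They did not all group by label. Spermatogonia arrays 3 and 4 correlated best with pre-leptotene array 3 (r = 0.943 and r = 0.945 across the tested probe sets) and less well with any other spermatogonia array (at most 0.934 and 0.918). Pre-leptotene array 1 correlated best with a leptotene-zygotene array (0.957, against 0.947 with its own fraction). The labelled identity was also only partly borne out by its markers: the genes of stem and progenitor spermatogonia were not called as higher in spermatogonia, as described further on, and spermatid transcripts were abundant in all 4 spermatogonia arrays. With so few arrays, the lack of a call does not show that the stem and progenitor genes were level.

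Between the fractions, 166 of the 18926 probe sets (0.877%) were called, 143 lower in pre-leptotene cells (0.756%) and 23 higher (0.122%). With the project block 1080 were called (5.71%), 901 lower (4.76%) and 179 higher (0.946%), and all 166 were among them. The median change over all tested probe sets was 0.05, and 44.5% of the changes were below 0. Of the 143 falls, 119 had their highest spermatogonia signal in array 2, 20 in array 4, 4 in array 1 and 0 in array 3. Of all 18926 tested probe sets 3133, 5861, 3745 and 6187 were highest in arrays 2, 4, 1 and 3. Among the falls, different genes were thus highest in different spermatogonia arrays, mainly in array 2 or in array 4. The number of calls moved with single arrays: without spermatogonia array 1, 2 or 4 it was 16, 23 or 778, without pre-leptotene array 1 or 3 it was 77 or 15, and without spermatogonia array 3 it was 442. A fit of the 7 arrays alone, with the spread taken from the 2 fractions only, called 0.

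The largest falls were leukocyte genes. Lyz2, which encodes the lysozyme of macrophages and granulocytes, had log2 signals of 5.93, 3.19 and 3.19 in pre-leptotene arrays 1 to 3, against 7.79, 8.88, 9.13 and 10.28 in spermatogonia arrays 1 to 4. The arrays did not overlap, and pre-leptotene array 1 stood above the other two. Lyz2 fell by 4.92 ± 0.59 (SE, adjusted p = 0.00193). Pre-leptotene arrays 2 and 3 were near background, so the size is uncertain: with all signals under log2 5 raised to 5 the change was -3.71. Ptprc, the pan-leukocyte phosphatase CD45, had signals of 5.32, 2.43 and 3.62 in pre-leptotene arrays and of 7.95, 7.01, 7.91 and 9.43 in spermatogonia arrays, and fell by 4.28 ± 0.54 (adjusted p = 0.0031). S100a4, a calcium-binding protein of macrophages and fibroblasts, had signals of 2.44, 2.35 and 4.55 in pre-leptotene arrays against 6.56, 7.65, 7.70 and 8.99 in spermatogonia arrays, a change of -4.61 ± 0.50 (adjusted p = 0.00128). For these genes every pre-leptotene array lay below every spermatogonia array, and spermatogonia array 4 was the highest. Cd53, a tetraspanin of white blood cells, fell by 3.24 ± 0.36 with the same adjusted p as S100a4, on signals of 4.22, 2.82 and 2.87 in pre-leptotene arrays and of 6.00, 6.37, 6.22 and 7.56 in spermatogonia arrays. Ccl5, a chemokine that draws T cells and monocytes, was near 2.1 in all pre-leptotene arrays (2.16, 2.11 and 2.12) but varied widely in spermatogonia arrays (3.42, 6.30, 5.49 and 8.13), and fell by 3.71 ± 0.67 (adjusted p = 0.0347). With signals under log2 5 raised to 5, the change of Ccl5 was -1.23 and it was no longer called (adjusted p = 0.282). Ptprc, S100a4 and Cd53 were still called in that way, at changes of -2.97, -2.72 and -1.54.

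**Figure D1:**
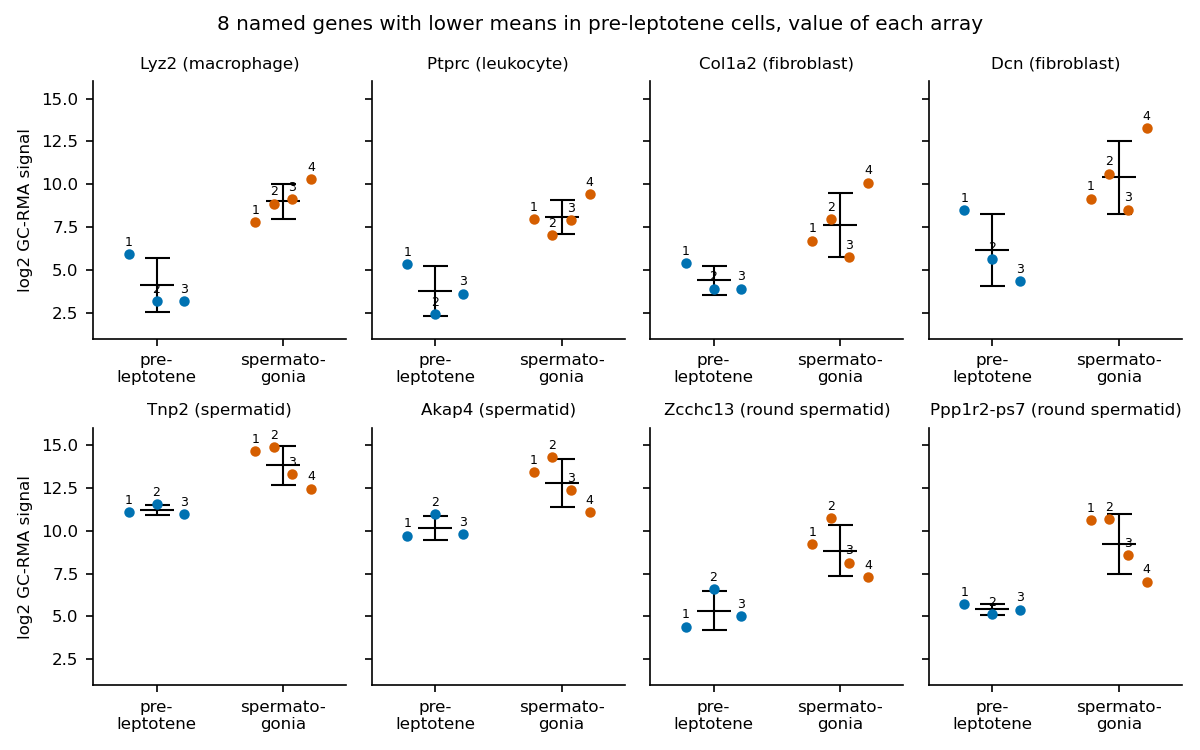
Log2 GC-RMA signal of 8 genes with lower means in pre-leptotene cells, on the 3 pre-leptotene arrays (left in each panel) and the 4 spermatogonia arrays (right), with replicate numbers beside the points and the bar at the mean ± SD. Lyz2, Ptprc, Col1a2 and Dcn were highest in spermatogonia array 4 and Tnp2, Akap4, Zcchc13 and Ppp1r2-ps7 in array 2. Dcn was called only with the project block.

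Of the 33 listed macrophage genes 24 were tested, and all 24 had a lower mean in pre-leptotene cells, with changes between -4.92 and -0.75 and a median of -2.79. Of these 24, 18 reached log2 5 in at most 1 pre-leptotene array and so passed the filter mainly through the spermatogonia arrays, which in part fixes their common direction. The test called 9 as lower (37.5%) and 0 as higher, and 18 as lower with the project block (75%, median -3.14). The blocked calls fell to 0 without spermatogonia array 2, pre-leptotene array 2 or pre-leptotene array 3. Of all tested probe sets 0.756% were called as lower, and 4.76% with the block. The genes called in both fits were Lyz2, Lyz1, Ptprc, Cd53, Cd52, Plek, Mpeg1, Lcp1 and Aif1. Aif1 did not follow the others: it was highest in spermatogonia array 2, and its mean in round spermatids (12.29) exceeded that in spermatogonia (10.90). Of the 24 genes, 17 stand on the study's own list of 50 spermatogonia probe sets, which was chosen on these arrays, so their direction is not independent evidence. All 50 probe sets of that list were tested, and 13 were called as lower.

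The macrophage genes were not absent from all pre-leptotene arrays. Their mean log2 signal was 6.44, 3.34 and 3.58 in pre-leptotene arrays 1 to 3, against 7.89, 6.72, 6.04 and 7.75 in spermatogonia arrays 1 to 4. Pre-leptotene array 1 therefore lay above spermatogonia array 3, while arrays 2 and 3 were near the later germ cell fractions, whose arrays lay between 3.51 and 4.05 from early pachytene on. In 23 of the 24 genes pre-leptotene array 1 was the highest of the 3, and among spermatogonia arrays 14 genes were highest in array 1 and 9 in array 4. Csf1r, the receptor for the macrophage growth factor CSF1, had 9.06, 2.15 and 2.12 in pre-leptotene arrays and 9.70, 6.90, 5.56 and 7.84 in spermatogonia arrays. It was not called (change -3.06 ± 1.32, adjusted p = 0.354, and 0.0567 with the project block), while a dimmer second probe set of Csf1r was called with the block (-2.73, adjusted p = 0.025). Within projects 2, 5 and 8 the median change of the list was -1.20, -3.42 and -4.43. All 24 genes were below 0 in each project, where 17.9% of all tested probe sets were. Summed over the list, the linear signal was between 593 and 3359 in pre-leptotene arrays and between 4403 and 10888 in spermatogonia arrays. In round spermatids the sum was between 5886 and 7563, above spermatogonia array 3, although the list's mean log2 signal there was only 3.71 to 4.05. The sum therefore does not follow the list's mean. Aif1, higher in round spermatids than in spermatogonia, is part of it, and its share was not tested. The defining genes Adgre1 and Cd68 did not pass the filter on low signals. C1qa, a complement subunit of tissue macrophages, was not called either (7.20, 2.60 and 1.81 in pre-leptotene arrays, 7.46, 5.14, 2.56 and 6.71 in spermatogonia arrays). In pooled sorted cells, fewer cells of a type and less RNA per cell cannot be told apart.

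Genes of antigen presentation and inflammation followed the macrophage list. Of 10 listed MHC class II genes 7 were tested. None was called without the block (median -3.15). With it 7 (100%) were called as lower, against 4.76% of all tested probe sets (median -3.81). The blocked calls fell to 0 without spermatogonia array 2, pre-leptotene array 2 or pre-leptotene array 3. Of these 7, 4 reached log2 5 in at most 1 pre-leptotene array, so the filter in part fixes their direction. Cd74, the invariant chain that escorts class II molecules, had 10.36, 5.74 and 4.67 in pre-leptotene arrays and 11.50, 10.01, 8.60 and 11.80 in spermatogonia arrays. Its adjusted p was 0.14 without the block and 0.0254 with it, and its change within projects 2, 5 and 8 was -1.13, -4.27 and -7.14. The fold therefore depended strongly on which pair of arrays was read, the pair of project 2 being the nearest. Of the chemokines and cytokines 10 of 22 were tested. Against 0.756% and 4.76% of all tested probe sets, 1 (Ccl5, 10%) was called as lower without the block and 6 (60%) with it. They included Cxcl2, which attracts neutrophils (blocked change -4.30), and Il1b, the inflammatory cytokine (-3.81). Of the 10 tested, 8 reached log2 5 in at most 1 pre-leptotene array, so the same limit holds. Of 13 lymphocyte genes 11 had a probe set and 1 passed the filter, and Cd3e and Cd79a, which define T and B cells, did not. Of 6 red blood cell genes 3 had a probe set, and 0 passed.

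Stromal genes were highest in spermatogonia array 4. Col1a2, a chain of type I collagen, had 5.39, 3.91 and 3.92 in pre-leptotene arrays and 6.71, 7.97, 5.74 and 10.10 in spermatogonia arrays. It fell by 3.22 ± 0.71 (adjusted p = 0.0472), and Col3a1, of type III collagen, by 3.30 ± 0.71 (adjusted p = 0.0455). With signals under log2 5 raised to 5 neither Col1a2 nor Col3a1 was called (changes of -2.50 and -2.18, adjusted p = 0.0802 and 0.0836). Dcn, which encodes the matrix proteoglycan decorin, had 8.49, 5.62 and 4.37 in pre-leptotene arrays and 9.17, 10.63, 8.52 and 13.28 in spermatogonia arrays, so that pre-leptotene array 1 and spermatogonia array 3 were level. It was called with the project block alone (adjusted p = 0.0595 without and 0.0396 with it). Of the 12 endothelial and fibroblast genes 5 were tested, with a median of -3.22. Against 0.756% and 4.76% of all tested probe sets, 2 (40%) were called as lower without the block and 3 (60%) with it. Of these 5, 3 reached log2 5 in at most 1 pre-leptotene array, so the filter in part fixes their direction. The mean log2 signal of the list was 5.40, 4.28 and 4.14 in pre-leptotene arrays and 6.39, 7.43, 5.69 and 9.54 in spermatogonia arrays. The collagen genes were also detected in round spermatids, at means of 6.75 for Col1a2 and 6.80 for Col3a1. The 5 tested peritubular myoid genes had a median of -1.16, with 1 called with the block (Tpm2, a tropomyosin), and the 2 tested Leydig genes and 9 tested Sertoli genes had 0 calls in either fit, at medians of -0.72 and 0.11. Cyp11a1, which defines Leydig cells, and Sox9, Rhox5 and Fshr, which define Sertoli cells, did not pass the filter.

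**Figure D2:**
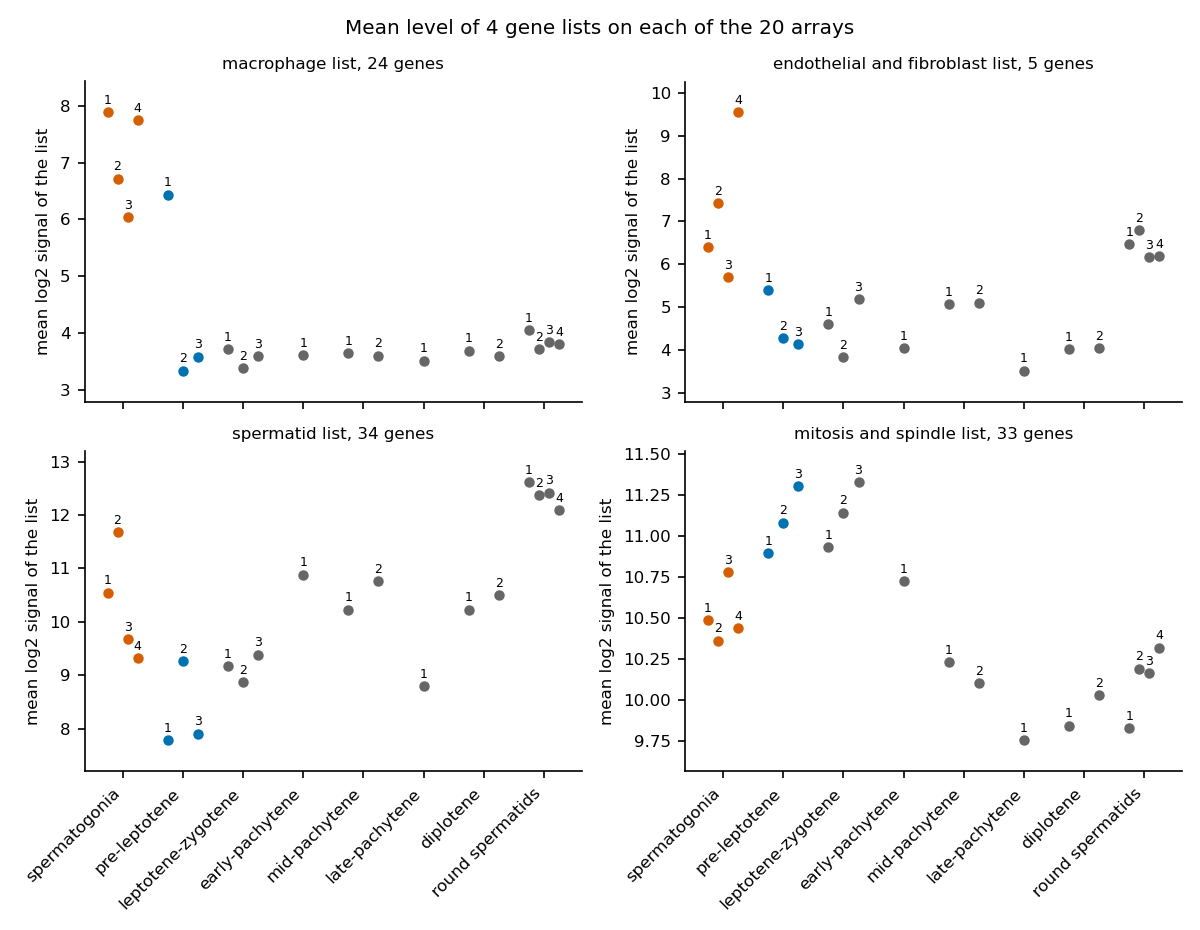
Mean log2 signal of 4 gene lists on each of the 20 arrays, in stage order, with replicate numbers above the points (blue for pre-leptotene, orange for spermatogonia, grey for the other fractions). Macrophage genes were high in all 4 spermatogonia arrays and in pre-leptotene array 1 (6.44), spermatid genes were highest among the 7 arrays in spermatogonia array 2 (11.68), and mitosis genes were above every spermatogonia array in every pre-leptotene array.

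More of the falls were in genes that spermatids express. Tnp1, which encodes a transition protein that replaces histones in elongating spermatids, had 11.52, 12.07 and 11.61 in pre-leptotene arrays against 14.80, 15.22, 13.75 and 13.11 in spermatogonia arrays. It fell by 2.49 ± 0.40 (adjusted p = 0.0219), and its spermatogonia mean of 14.22 was close to its round spermatid mean of 14.32. A dimmer Tnp1 probe set was called with the project block alone (change -1.17, adjusted p = 0.211 without and 0.0456 with it). Tnp2, the second transition protein, had 11.10, 11.56 and 10.98 in pre-leptotene arrays and 14.65, 14.89, 13.32 and 12.45 in spermatogonia arrays, and fell by 2.61 ± 0.46 (adjusted p = 0.0338). Akap4, the main protein of the sperm tail's fibrous sheath, had 9.72, 10.99 and 9.79 in pre-leptotene arrays and 13.43, 14.30, 12.37 and 11.10 in spermatogonia arrays (change -2.63 ± 0.54, adjusted p = 0.041). For all 3 genes the fractions did not overlap, and spermatogonia array 2 was the highest and array 4 the lowest, whereas array 4 was the highest for Lyz2 and Ptprc. The changes of the protamines were smaller. Prm1 had 14.11, 13.92 and 13.60 in pre-leptotene arrays and 15.06, 15.44, 14.61 and 13.92 in spermatogonia arrays, and its change of -0.88 ± 0.33 was not called (adjusted p = 0.245, and 0.0977 with the block). Another Prm1 probe set was called with the block (-1.26, adjusted p = 0.0484). Prm2 was called with the project block alone (change -1.45, adjusted p = 0.0955 without and 0.0298 with it).

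Of the 36 listed spermatid genes 34 were tested, and all 34 had lower means in pre-leptotene cells in each of the 3 projects (median -2.27, and within projects 2, 5 and 8 -3.10, -2.87 and -1.49). Of all tested probe sets 17.9% were lower in each of the 3. The test called 7 as lower (20.6%) and 22 with the project block (64.7%), against 0.756% and 4.76% of all tested probe sets. The blocked calls fell to 0 without spermatogonia array 1 or 2 or without pre-leptotene array 2 or 3. Besides Tnp1, Tnp2 and Akap4 the 7 were Tssk3, a testis-specific serine kinase, Fhl5, a coactivator of the spermatid transcription factor CREM, Ropn1, a binding partner of sperm A-kinase anchoring proteins, and Gsg1, a germ cell gene. The list's mean log2 signal was 7.78, 9.26 and 7.91 in pre-leptotene arrays and 10.54, 11.68, 9.67 and 9.31 in spermatogonia arrays. Spermatogonia array 4 and pre-leptotene array 2 were thus nearly level, and in 33 of the 34 genes array 2 was the highest spermatogonia array. The pre-leptotene arrays carried these transcripts too, near the leptotene-zygotene mean (9.14) in array 2, below it in arrays 1 and 3, and below the round spermatid mean (12.4) in all 3. Of the 17 tested genes of pachytene cells and later stages, 1 (5.88%) was called (Pgk2, the sperm form of phosphoglycerate kinase, change -2.56 ± 0.57, adjusted p = 0.0472) and 6 (35.3%) with the block, at a median of -0.65. The 20 tested genes of the axoneme had 0 calls without the block and 5 (25%) with it (median -0.74).

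Several called genes on none of the lists shared the spermatid pattern. Others, such as S100a4 and S100a6, were highest in spermatogonia array 4 and low in round spermatids (means of 2.42 and 4.10). Ppp1r2-ps7, annotated as a pseudogene of an inhibitor of protein phosphatase 1, had 5.72, 5.12 and 5.39 in pre-leptotene arrays and 10.63, 10.70, 8.60 and 7.03 in spermatogonia arrays, and fell by 3.83 ± 0.66 (adjusted p = 0.0324). Zcchc13, a zinc finger gene, had 4.41, 6.58 and 5.04 in pre-leptotene arrays and 9.23, 10.72, 8.14 and 7.28 in spermatogonia arrays, and fell by 3.50 ± 0.62 (adjusted p = 0.0347). Both had round spermatid means above their spermatogonia means (9.59 and 9.87). Other large falls of this kind were 1700016C15Rik (-3.77), Fam71f1 (-3.56), Gm21283 (-3.53), Prss37, a serine protease homologue of the testis (-3.46), Tex55 (-3.42) and Cypt1 (-3.36). Across all 143 falls, 105 had a round spermatid mean at or above the spermatogonia mean, and 102 of these were highest in spermatogonia array 2. Of all 18926 tested probe sets 3133 were highest in that array. In 100 of the 105 the leptotene-zygotene mean was above the pre-leptotene mean. The 105 were selected as low in pre-leptotene cells and high in round spermatids, so this count is in part built in.

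**Figure D3:**
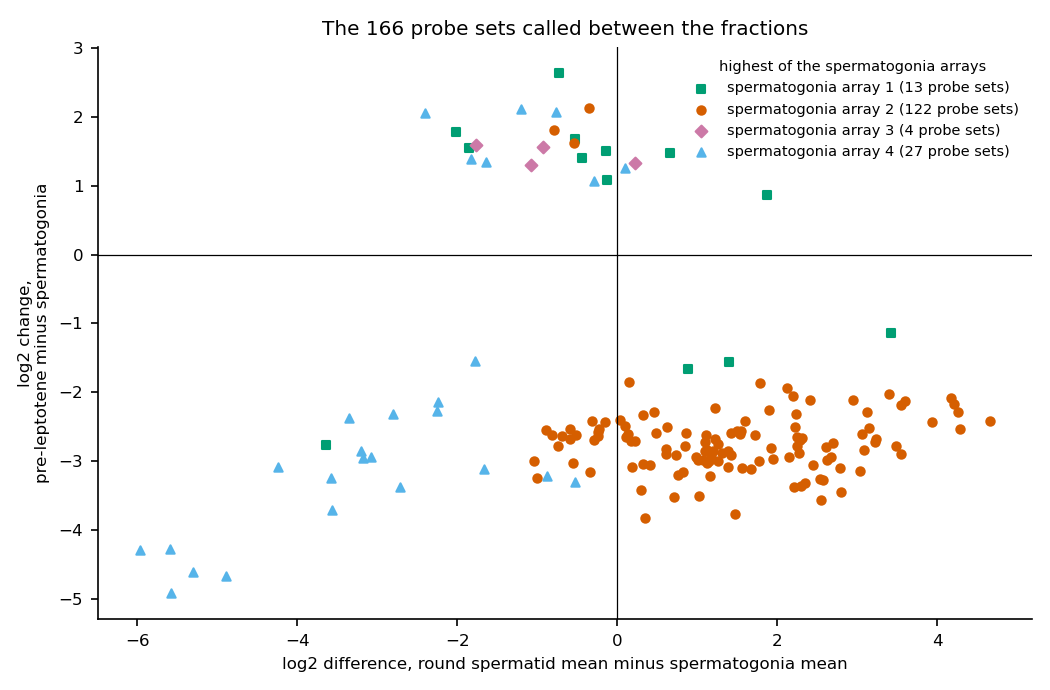
Each of the 166 called probe sets by its round spermatid mean minus its spermatogonia mean (horizontal axis, log2) and by its change between pre-leptotene cells and spermatogonia (vertical axis, log2), with the symbol showing which spermatogonia array was highest. Falls highest in spermatogonia array 2 (circles) lie mostly right of 0, that is, at or above the spermatogonia level in round spermatids, and those highest in array 4 (triangles) lie left of 0.

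The other 38 falls had a lower mean in round spermatids than in spermatogonia, and the same held for every fraction from early pachytene on. They were not all of 1 kind: 20 were highest in spermatogonia array 4, 17 in array 2 and 1 in array 1. Among those highest in array 2 were Hspa1l, a testis member of the HSP70 chaperones (-2.70, round spermatid mean 10.74 against 11.03 in spermatogonia), Ppp2r2b, a regulatory subunit of protein phosphatase 2A (-3.24), Dydc2 (-3.02) and Ccdc91 (-3.16). Those genes stood at a round spermatid mean of 7.21 or more, so they too were expressed late. Of the other probe sets of Ccdc91, 1 was called as well (-2.54, adjusted p = 0.0478) and 1 changed by 0.03. Only 19 of the 143 falls also had a mean under log2 5 in every fraction from early pachytene on, that is, no clear signal in the later germ cells, and 18 of the 19 were highest in spermatogonia array 4. They represent 17 named genes and 1 probe set without a symbol: Lyz2, Lyz1 (2 probe sets), S100a4, Ptprc, Ccl5, Glipr1, Cd53, Fgl2, Cd52, S100a6, Apoe, Plek, Mpeg1, Lcp1, Maf, Cd163l1 and Lsp1. Most of these are known from macrophages and other leukocytes. S100a6, a calcium-binding protein also made by fibroblasts, had 4.20, 3.96 and 4.77 in pre-leptotene arrays against 6.78, 6.87, 6.81 and 8.61 in spermatogonia arrays (change -2.96 ± 0.40, adjusted p = 0.00454). Apoe, the lipid carrier abundant in macrophages and steroid-making cells, had 4.96, 5.83 and 4.54 in pre-leptotene arrays against 7.15, 8.61, 6.72 and 9.74 in spermatogonia arrays (change -2.94 ± 0.55, adjusted p = 0.0347). Of the 19, 16 lay under log2 5 in both pre-leptotene arrays 2 and 3, so they passed the filter mainly through the spermatogonia arrays. No gene of the stem or differentiating spermatogonia lists was among the 19. As those lists had 0 calls in either fit, this absence is not separate evidence. The part of other cells in these falls was not tested beyond these levels.

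With the project block the same sorting left 83 of 901 falls, in 63 named genes, without a later mean of log2 5. Of the 83, 65 lay under log2 5 in both pre-leptotene arrays 2 and 3, so the same limit holds. These 83 added macrophage genes such as Tyrobp, the adaptor of activating myeloid receptors, and Cd14, the coreceptor for bacterial lipopolysaccharide, and MHC class II genes. They also added immediate early genes, which respond within minutes to stimulation, such as Junb. Junb had 5.79, 5.64 and 6.46 in pre-leptotene arrays and 7.07, 8.04, 6.30 and 10.28 in spermatogonia arrays (change -1.96, adjusted p = 0.266 without the block, and -2.50, adjusted p = 0.025 with it). Of the 23 tested immediate early and stress genes 0 were called without the block. With it 6 (26.1%) were called as lower (Jun, Junb, Atf3, Ier2, Nr4a1 and Zfp36), against 4.76% of all tested probe sets. The median of the 23 was -0.76. In 21 of the 23 the highest spermatogonia array was array 4, and without that array the median was -0.197.

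The 23 rises were smaller and came largely from dim probe sets: 16 had a spermatogonia mean under log2 5, and 15 carried a single gene symbol. All 23 had every pre-leptotene array above every spermatogonia array, a pattern seen in 4.52% of all tested probe sets. The calls were made on the same arrays and favour such probe sets, so this is not independent evidence. The 16 dim ones passed the filter mainly through the pre-leptotene arrays, which in part fixes their direction. Among the brighter ones were genes of mitosis. Prc1, which bundles the microtubules of the central spindle during cytokinesis, had 10.83, 10.78 and 11.10 in pre-leptotene arrays against 9.71, 9.16, 9.60 and 9.27 in spermatogonia arrays. The arrays of a fraction lay close together, and Prc1 rose by 1.47 ± 0.20 (2.78-fold, adjusted p = 0.00454), with changes of 1.12, 1.63 and 1.83 within projects 2, 5 and 8. Ccnf, cyclin F, the substrate receptor of an SCF ubiquitin ligase in late cell cycle, had 9.31, 9.29 and 9.36 in pre-leptotene arrays against 7.99, 7.70, 7.75 and 8.78 in spermatogonia arrays, and rose by 1.26 ± 0.26 (adjusted p = 0.041). Kif18b, a kinesin that shortens astral microtubules, had 9.49, 9.25 and 9.65 in pre-leptotene arrays against 8.75, 8.51, 8.56 and 8.58 in spermatogonia arrays, and rose by 0.87 ± 0.19 (adjusted p = 0.0472). Sapcd2, which takes part in orienting the spindle, was one of the dim ones, with a spermatogonia mean of 4.97. It rose by 1.38 ± 0.28 (6.17, 6.25 and 6.66 in pre-leptotene arrays, 4.93, 4.62, 4.80 and 5.53 in spermatogonia arrays, adjusted p = 0.041). Banp, a chromatin protein that binds unmethylated CpG sites, had 7.93, 8.61 and 8.06 in pre-leptotene arrays against 6.94, 6.35, 7.05 and 7.05 in spermatogonia arrays (change 1.35 ± 0.27, adjusted p = 0.0406).

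For several rises a second probe set of the same gene disagreed. Of the 15 genes 7 had more than 1 tested probe set, and in 6 of these the probe set with the highest mean signal was not called. Falls held such cases too: of their 131 genes 24 had more than 1 tested probe set. In 1 of those 24 all probe sets were called, and in 7 the brightest was not. Among the rises there were these cases. Cenpa, the histone H3 variant of centromeres, rose by 2.05 ± 0.31 on 1 probe set (7.19, 7.76 and 7.51 in pre-leptotene arrays, 5.44, 5.39, 5.25 and 5.65 in spermatogonia arrays, adjusted p = 0.0121), whereas its main probe set changed by 0.27 ± 0.53 (means of 12.50 in pre-leptotene cells and 12.24 in spermatogonia, adjusted p = 0.993). The same held for Clcn7, a lysosomal chloride transporter (1.60, against 0.10 on its main probe set), Prune1, a phosphatase (1.68, against 0.10), Rpp30, a subunit of RNase P (1.79, against 0.21), and Tle3, a Groucho corepressor (1.40, against 0.33). Another Tle3 probe set went the other way, by -1.72 ± 0.57 (adjusted p = 0.167 without and 0.121 with the block), and another changed by 0.43. In Prc1 the second probe set changed by 1.21 and was called with the project block (adjusted p = 0.062 without and 0.025 with it), and in Ccnf the second probe set changed by 1.21 (adjusted p = 0.073 without and 0.0254 with the block). The other 8 genes had 1 tested probe set each, among them Ntrk3, the receptor for neurotrophin 3 (1.56 ± 0.34, adjusted p = 0.0467), and 6430548M08Rik (1.55 ± 0.28, adjusted p = 0.0347). Lad1, ladinin, showed the largest rise of a named gene (2.64) on signals of 5.76, 5.34 and 6.50 in pre-leptotene arrays and of 3.45, 2.85, 3.26 and 3.34 in spermatogonia arrays. It was too dim for the rule on named genes and is given here after its values were seen.

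The mitosis and spindle genes as a list had higher means in pre-leptotene cells. Of the 33 tested genes (of 34 listed) 31 had a change above 0, and 30 were above 0 in each of the 3 projects, where 29.2% of all tested probe sets were. In 16 of the 33 (48.5%) every pre-leptotene array lay above every spermatogonia array, against 4.52% of all tested probe sets. The median change was 0.59, and 0.37, 0.77 and 0.76 within projects 2, 5 and 8. With each gene at its brightest probe set, 0 of the 33 were called without a block and 11 (33.3%) with the project block, all higher. The project block called 0.946% of all tested probe sets as higher. Leaving out 1 array at a time, the median was between 0.491 and 0.713. The calls were less stable than the median: with the project block, 0 of the 33 were called without spermatogonia array 2 or without any 1 of the pre-leptotene arrays, 2 without spermatogonia array 1 and 6 without spermatogonia array 4. The list's mean log2 signal was 10.90, 11.08 and 11.31 in pre-leptotene arrays against 10.49, 10.36, 10.78 and 10.44 in spermatogonia arrays, and it stayed at the pre-leptotene level in leptotene-zygotene cells (mean 11.1) before the lower levels of late pachytene (9.75).

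**Figure D4:**
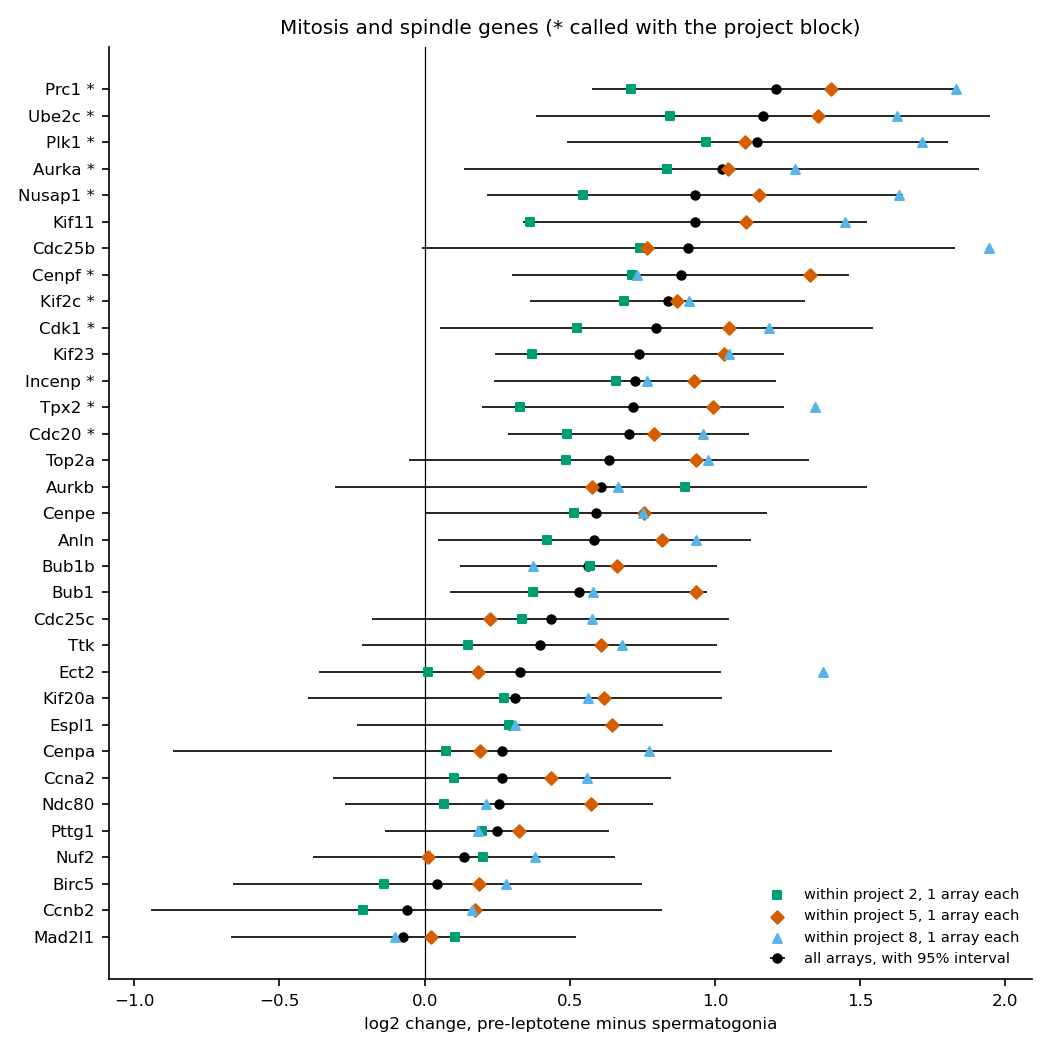
Log2 change of the 33 mitosis and spindle genes between pre-leptotene cells and spermatogonia (black points, with 95% intervals of the fit without a block), beside the difference within each of projects 2, 5 and 8 (coloured symbols, 1 array of each fraction). In 30 of the 33 genes all 3 project differences lie above 0, and the 11 genes marked with an asterisk were called with the project block.

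The 11 genes called with the project block act at steps from mitotic entry to cytokinesis. Plk1, the polo-like kinase of mitotic entry and spindle assembly, had 10.30, 10.50 and 10.27 in pre-leptotene arrays against 9.33, 9.40, 9.56 and 8.55 in spermatogonia arrays (change 1.15 ± 0.31, adjusted p = 0.0815 without and 0.0254 with the block). Ube2c, the ubiquitin-conjugating enzyme of the anaphase-promoting complex, had 11.35, 11.90 and 12.54 in pre-leptotene arrays against 10.50, 10.55, 11.09 and 10.92 in spermatogonia arrays (change 1.17, blocked adjusted p = 0.0269). Aurka, the centrosomal Aurora kinase, had 9.00, 9.98 and 10.04 in pre-leptotene arrays against 8.16, 8.93, 8.73 and 8.77 in spermatogonia arrays (change 1.02, blocked adjusted p = 0.025). Plk1, Ube2c and Aurka did not overlap between the fractions. The others were Prc1, Nusap1, which binds spindle microtubules (blocked change 1.11), Cenpf, of the outer kinetochore (0.92), Cdk1, the mitotic kinase (0.92), Tpx2, the activator of Aurora A (0.89), Kif2c, a microtubule depolymerase (0.82), Incenp, of the chromosomal passenger complex (0.78), and Cdc20, the mitotic activator of the anaphase-promoting complex (0.75). Other members had changes near 0: Ccnb2, a B-type cyclin, changed by -0.06 ± 0.41, Mad2l1, of the spindle checkpoint, by -0.07 ± 0.28 and Birc5, survivin, by 0.04 ± 0.33, none of them called in either fit.

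The promoters of 8 mitosis genes are shown, as 300 bases that lie mostly before the start of each gene and end shortly after it (RefSeq, GRCm38.p6). They are those of the rises Prc1, Ccnf, Kif18b, Cenpa and Sapcd2, of which Ccnf, Kif18b and Sapcd2 are on no list and Cenpa rose on its dimmer probe set only, and of Plk1, Ube2c and Nusap1, called with the project block. These 8 were picked after their values were seen. In dividing cells, promoters of late cell cycle genes often hold a cell cycle genes homology region, bound by the DREAM and B-MYB complexes, and CCAAT boxes, bound by NF-Y. Capitals mark TTTGAA (the letters of the homology region) and CCAAT, on either strand, so that TTCAAA and ATTGG are marked as well. They lie at chr7:80294201-80294500 (Prc1, plus strand), chr17:24251360-24251659 (Ccnf, minus strand), chr11:102925075-102925374 (Kif18b, minus strand), chr5:30666636-30666935 (Cenpa, plus strand), chr7:122159185-122159484 (Plk1, plus strand), chr2:164769679-164769978 (Ube2c, plus strand), chr2:119618048-119618347 (Nusap1, plus strand) and chr2:25371785-25372084 (Sapcd2, plus strand), each printed 5′ to 3′ on the strand of its gene.
Prc1: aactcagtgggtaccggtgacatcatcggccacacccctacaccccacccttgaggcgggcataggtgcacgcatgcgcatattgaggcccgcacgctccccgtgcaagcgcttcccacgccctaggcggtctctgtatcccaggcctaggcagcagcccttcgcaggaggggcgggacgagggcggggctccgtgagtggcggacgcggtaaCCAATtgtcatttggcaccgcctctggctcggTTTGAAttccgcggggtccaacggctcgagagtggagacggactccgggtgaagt
Ccnf: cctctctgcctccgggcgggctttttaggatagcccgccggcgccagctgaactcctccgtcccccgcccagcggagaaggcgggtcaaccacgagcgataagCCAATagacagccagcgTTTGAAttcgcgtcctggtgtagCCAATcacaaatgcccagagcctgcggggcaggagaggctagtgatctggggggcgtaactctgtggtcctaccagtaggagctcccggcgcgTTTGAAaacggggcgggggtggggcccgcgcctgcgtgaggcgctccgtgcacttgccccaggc
Kif18b: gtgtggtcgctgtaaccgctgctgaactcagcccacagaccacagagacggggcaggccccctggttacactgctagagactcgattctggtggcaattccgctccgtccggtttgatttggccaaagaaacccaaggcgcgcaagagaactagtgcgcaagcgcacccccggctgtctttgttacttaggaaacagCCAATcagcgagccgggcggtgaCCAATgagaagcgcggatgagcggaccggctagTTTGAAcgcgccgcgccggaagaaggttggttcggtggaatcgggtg
Cenpa: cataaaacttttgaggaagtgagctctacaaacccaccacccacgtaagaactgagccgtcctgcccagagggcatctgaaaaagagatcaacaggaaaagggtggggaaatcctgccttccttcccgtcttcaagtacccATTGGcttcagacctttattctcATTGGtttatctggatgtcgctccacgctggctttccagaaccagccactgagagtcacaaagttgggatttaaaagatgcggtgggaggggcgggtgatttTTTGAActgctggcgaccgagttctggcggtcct
Plk1: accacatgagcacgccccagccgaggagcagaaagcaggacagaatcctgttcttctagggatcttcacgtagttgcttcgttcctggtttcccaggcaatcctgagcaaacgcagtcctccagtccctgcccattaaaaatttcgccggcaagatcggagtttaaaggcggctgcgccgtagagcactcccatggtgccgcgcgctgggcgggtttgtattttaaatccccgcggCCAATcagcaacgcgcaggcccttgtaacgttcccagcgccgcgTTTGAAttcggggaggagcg
Ube2c: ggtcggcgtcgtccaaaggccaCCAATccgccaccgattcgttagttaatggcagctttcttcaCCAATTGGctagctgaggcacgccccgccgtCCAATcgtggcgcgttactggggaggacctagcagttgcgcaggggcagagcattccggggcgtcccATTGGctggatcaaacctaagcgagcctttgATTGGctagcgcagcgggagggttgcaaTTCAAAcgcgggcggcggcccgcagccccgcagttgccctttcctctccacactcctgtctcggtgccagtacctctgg
Nusap1: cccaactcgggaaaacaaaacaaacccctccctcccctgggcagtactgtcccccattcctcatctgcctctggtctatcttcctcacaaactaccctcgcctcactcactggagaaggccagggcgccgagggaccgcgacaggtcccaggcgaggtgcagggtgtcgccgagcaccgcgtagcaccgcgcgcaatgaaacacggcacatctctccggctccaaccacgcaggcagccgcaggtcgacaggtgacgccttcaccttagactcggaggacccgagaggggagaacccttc
Sapcd2: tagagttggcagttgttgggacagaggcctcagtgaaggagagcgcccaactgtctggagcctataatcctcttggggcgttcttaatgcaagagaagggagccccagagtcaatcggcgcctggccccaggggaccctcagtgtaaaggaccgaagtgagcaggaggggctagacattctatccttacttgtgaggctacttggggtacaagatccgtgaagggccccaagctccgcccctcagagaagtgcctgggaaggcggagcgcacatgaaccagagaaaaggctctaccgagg

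Nusap1 and Sapcd2 held neither kind of letters in this window, and the other 6 promoters shown held both. The letters of the homology region stood in 8 of the 9 called mitosis genes with a promoter entry, and in 11 of the 18 other tested genes of the list. Over the first listed promoter of all 27025 genes of the same length the share was 18.1%. CCAAT stood in 7 of the 9 and in 12 of the 18, against 37.9% of all promoters. Both groups of mitosis genes held these letters in a larger share than all promoters did, and no test was made. The 2 kinds of letters do not overlap each other, but CCAAT on 1 strand can overlap CCAAT on the other. A match is a description of the sequence only.

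Genes that mark the stages themselves were not called. In simulated data the fit recovered 18% of changes of log2 1 and 68% of those of log2 2. A lack of calls therefore does not show that levels were equal. Of 31 stem and progenitor genes 22 were tested, with a median of 0.17 and 0 calls in either fit. Gfra1, the receptor for GDNF on undifferentiated spermatogonia, had 6.64, 4.86 and 6.26 in pre-leptotene arrays and 6.47, 5.51, 5.85 and 7.38 in spermatogonia arrays (change -0.38 ± 0.50, adjusted p = 0.958). Zbtb16, the PLZF repressor of progenitors, had 10.68, 8.74 and 9.84 in pre-leptotene arrays and 9.95, 8.28, 8.57 and 10.55 in spermatogonia arrays (change 0.41 ± 0.71). The fractions overlapped for both genes, and pre-leptotene array 1 and spermatogonia array 4 were the highest of their fractions. Id4, Etv5, Sall4 and Lin28a changed by -0.40, -0.52, 0.33 and 0.43, with standard errors between 0.40 and 0.72. Of the 18 tested genes of differentiating spermatogonia 16 had a change above 0 (median 0.22), and 0 were called. Kit, the receptor that marks this step, had 10.94, 11.30 and 11.91 in pre-leptotene arrays and 10.51, 10.62, 11.50 and 11.13 in spermatogonia arrays (change 0.45 ± 0.42, adjusted p = 0.874). Sohlh1, a transcription factor of the same step, had 9.37, 9.37 and 9.31 in pre-leptotene arrays and 8.71, 8.84, 8.47 and 9.58 in spermatogonia arrays, where array 4 alone lay above the pre-leptotene arrays (change 0.45 ± 0.30, adjusted p = 0.696).

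Genes of meiotic entry were already high in the arrays labelled spermatogonia. Stra8 had 11.84, 11.46 and 11.53 in pre-leptotene arrays and 11.49, 10.88, 10.98 and 12.32 in spermatogonia arrays (change 0.19 ± 0.83, adjusted p = 0.998). Sycp3, of the chromosome axis, had 12.49, 12.76 and 12.92 in pre-leptotene arrays and 12.44, 12.37, 12.92 and 12.55 in spermatogonia arrays (change 0.15 ± 0.22). Over the 34 tested meiotic genes the median was 0.06, and 0 were called in either fit. Meiob, a single-strand DNA-binding protein of meiotic recombination, stood out by size but varied among pre-leptotene arrays (5.66, 7.87 and 4.19, against 4.07, 3.64, 4.32 and 3.95 in spermatogonia arrays, change 1.91, adjusted p = 0.29). It was named after its values were seen. The 49 tested DNA replication genes had a median of -0.04 and 0 calls. Mcm5, of the replicative helicase, had 14.12, 13.60 and 13.69 in pre-leptotene arrays and 14.14, 13.65, 14.21 and 13.66 in spermatogonia arrays. Of the 30 tested genes of E2F, RB and G1/S control, 1 was called with the block, as lower (3.33%, against 4.76% of all tested probe sets). It was Cdkn1c, a cyclin-dependent kinase inhibitor (8.17, 8.17 and 8.05 in pre-leptotene arrays, 10.25, 10.78, 7.79 and 9.11 in spermatogonia arrays, blocked change -1.92, adjusted p = 0.0247).

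Signalling and metabolic lists had few calls. Of 27 tested growth factor receptors and ligands, 0 were called without the block. With it 2 were called as higher (7.41%) and 1 as lower (3.7%), against 0.946% and 4.76% of all tested probe sets. Gli2, a transcription factor of Hedgehog signalling, had 8.43, 7.79 and 8.39 in pre-leptotene arrays against 7.37, 6.67, 7.65 and 6.29 in spermatogonia arrays (blocked change 1.42, adjusted p = 0.0298), and Notch1, a receptor of cell-cell signalling, had 7.58, 7.56 and 7.83 in pre-leptotene arrays against 6.71, 6.45, 6.24 and 7.36 in spermatogonia arrays (0.82, adjusted p = 0.0404). Both were above every spermatogonia array in every pre-leptotene array. Igf1, a growth factor made by many stromal cells and macrophages, fell with the block by 3.77 (adjusted p = 0.0274), with its highest signal of 8.98 in spermatogonia array 4. Of 15 tested glycolysis genes 4 (26.7%) were called as lower with the block (Hk1, Aldoa, Tpi1 and Ldha), against 4.76% of all tested probe sets. Each of the 4 had a round spermatid mean above its spermatogonia mean. The tested lists of retinoid genes (10), lysosome (20), interferon and MHC class I (9), piRNA and germ granule (16), DNA methylation (9), cholesterol synthesis (19) and cytosolic ribosomal proteins (47) had 0 calls in either fit, with medians between -0.08 and 0.18 without the block. With the block the median of the interferon and MHC class I list was -0.61, and within project 8 it was -1.85.

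**Figure D5:**
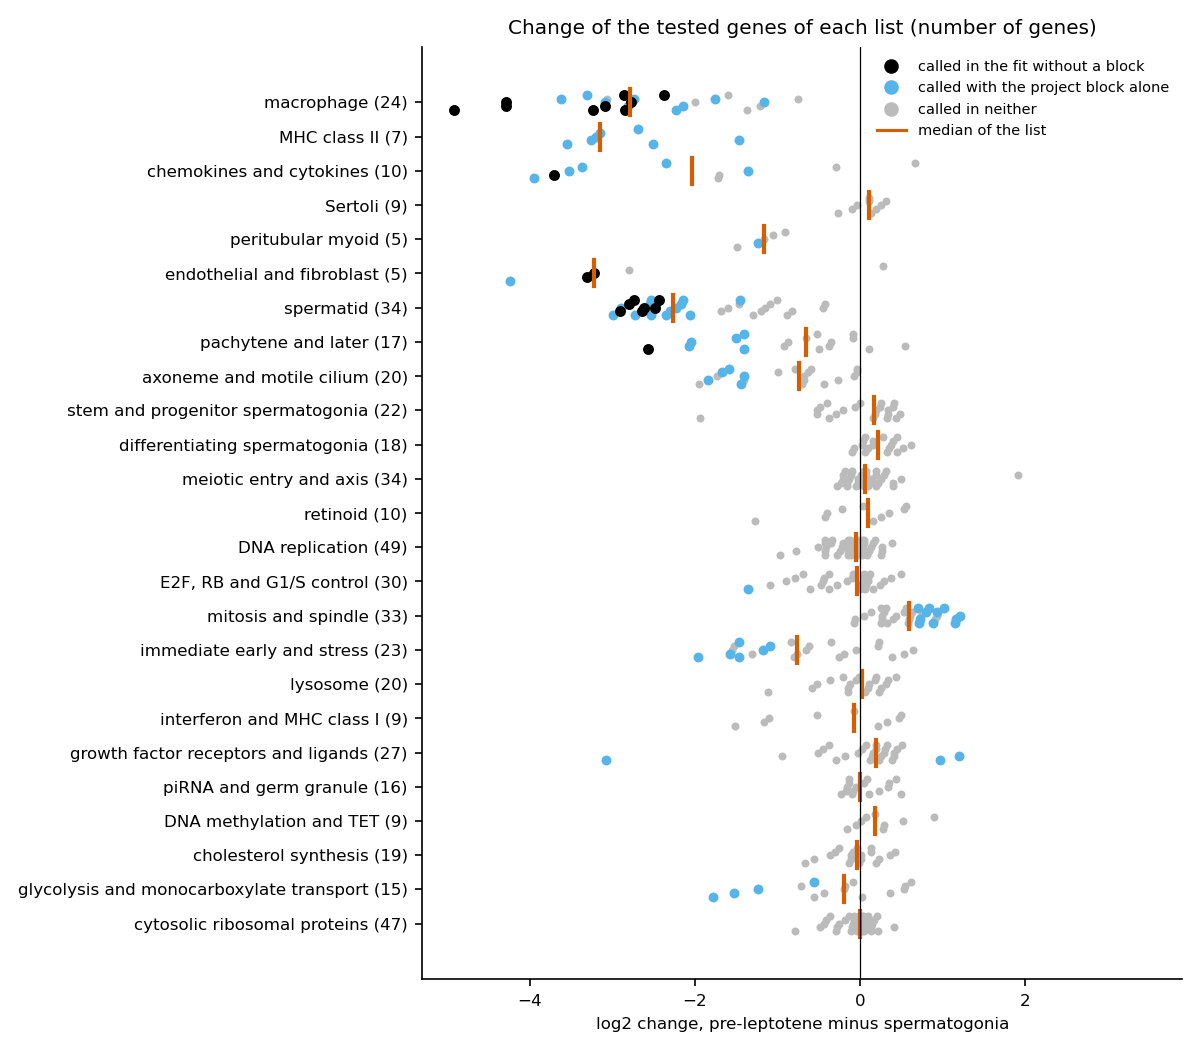
Log2 change of each tested gene between pre-leptotene cells and spermatogonia, 1 line of points per gene list with the number of genes in brackets (black for genes called without a block, blue for those called with the project block alone, grey for the rest, orange line for the median). Macrophage (median -2.79) and spermatid (-2.27) genes lie left of 0, mitosis and spindle genes (0.59) right of it, and stem, meiotic and DNA replication genes around it.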

How the data were processed

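Affymetrix MOE430 version 2 arrays (20 in all) were hybridised with RNA of 8 germ cell fractions, each a pool of sorts. The signal values deposited by the authors, an intensity on a linear scale, were made with GC-RMA, whose version and background settings are not given in the sources used here. GC-RMA estimates background from probe sequence and compresses dim probe sets, so differences near log2 5 are less certain than those above it. No depth exists for arrays, so the number of arrays limits the precision. Probe sets were named through the platform annotation: 34945 of 45037 had 1 gene symbol, 932 several and 9160 none, and only those with 1 were named. By gene identifier, 34737 matched RefSeq.

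Signals were taken to log2 and fitted with limma 3.58.1 (R 4.3.3; lmFit, contrasts.fit, eBayes, two-sided) on all 20 arrays as 8 fractions, with Benjamini-Hochberg adjustment over 18926 probe sets. Tables and figures used Python 3.11.15, numpy 2.4.6, pandas 2.3.3 and matplotlib 3.10.9. The fit was tested on simulated data, where it recovered 18%, 68%, 88% and 92% of changes of log2 1, 2, 3 and 4 (50 probe sets each). Deviations from the fraction means correlated at 0.623, 0.595 and 0.218 between arrays of the same number and at 0.623, 0.595 and 0.456 between arrays of the same project. Arrays numbered 1 and 2 shared a project across the fractions. Pre-leptotene array 3 shared its project with spermatogonia array 4, so the replicate number did not pair it by project. The project of each array was found by matching its signals to the labelled columns of the study's supplementary data. The p-values measure the spread between RNA pools, taken as 1 estimate per probe set over all 8 fractions. For the macrophage list the SD between arrays was 0.88 in spermatogonia and 1.72 in pre-leptotene cells. It was 0.17 in leptotene-zygotene cells and 0.14 in round spermatids. For such genes the standard errors and p-values can understate the spread between the pools compared, and the 7 arrays alone gave 0 calls.

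A gene on a list stands by its tested probe set with the highest mean over the 7 arrays. Named genes were, among called single-gene probe sets with no overlap and a higher mean of at least log2 6, the 12 largest changes each way without and with the project block, the 12 largest falls on no list of other or later cells with a round spermatid mean no higher than in spermatogonia, each list's defining genes and up to 4 of its called members. Mitosis, signalling and immediate early genes called with the block, genes that disagreed between probe sets and single genes of lists without calls were named after their values were seen. The members and lists were chosen with earlier results of these data known. Alternatives covered the samples fitted, blocks, filters, a floor, normalization, moderation and single arrays left out.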

Additional observations from a re-analysis of the deposited data

Results flagged for a closer look

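Of 109 levels examined for a single array far from the rest of the 4 spermatogonia arrays, 5 passed Dixon's 95% limit, about the number that chance gives at 1 in 20. Spermatogonia array 4 was far above the other 3 for Lyz1 on 1 of its probe sets, at a log2 signal of 11.45, and for S100a6, at 8.61. It was also above them in the mean of the retinoid list, at 8.64. The same array was far below the others for Rec8, the meiotic cohesin subunit, at 6.84. Spermatogonia array 2 was far below the others for Banp, at 6.35. Groups of 3 were not examined in this way, so pre-leptotene array 1, which stood above the other pre-leptotene arrays in 23 of 24 macrophage genes, could not be picked out by this limit.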

How the results depend on the processing

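No called change of a named gene turned its sign under any alternative run, and the medians of the macrophage, spermatid and mitosis lists kept theirs (-3.79 to -1.31, -3.12 to -1.73 and 0.49 to 0.78), while medians near 0 could turn. The number of calls moved widely. Against 166 calls (23 higher, 143 lower), the 7 arrays alone gave 0 calls in either direction, with 1864 at an unadjusted limma p under 0.05. The replicate block over 18 numbered arrays gave 992 (207 higher, 785 lower), including all 166, and the replicate block within the 7 arrays 0, with 4411 unadjusted. The project block, chosen after seeing the data, gave 1080 (179 and 901). No filter gave 21 of 45037 (11 and 10), and a filter of log2 6 in 3 arrays 10 higher. Median centring gave 61 (14 and 47), a further quantile normalization 53 (15 and 38), and trended robust moderation 223 lower. The share of calls that were higher was 13.9%, 23.0% with centring, 28.3% with quantile normalization, 52.4% without a filter and 35.1% without pre-leptotene array 1. Leaving out 1 array at a time gave 15 to 778 calls, 4 to 87 higher and 8 to 691 lower. With the project block and 1 array left out, added after seeing the data, it gave 0 to 1442 calls, 0 to 196 higher and 0 to 1246 lower (75 calls, 59 lower, without spermatogonia array 1, and 92 lower without pre-leptotene array 1), the 0 being without pre-leptotene array 2 (2368 at an unadjusted p under 0.05). Of 46 named probe sets called without a block, 46 were called with the replicate block over 18 arrays, 46 with the project block, 26 with centring, 24 with quantile normalization, 8 without a filter and 6 to 46 with 1 array left out, or 0 to 46 with 1 array left out under the project block (0, 1 and 2 without pre-leptotene array 2, pre-leptotene array 3 and spermatogonia array 2). With signals under log2 5 raised to 5, 128 probe sets were called (32 and 96, 25% higher) and 36 of the 46, the calls of Ccl5, Fgl2, Col1a2, Col3a1, Gm21283, Prss37, Tex55, Dydc2, 1700009J07Rik and Pgk2 being lost. In the fit without a block, calls of macrophage genes with 1 array left out were 4 to 16 and of spermatid genes 0 to 24, and their medians were -3.58 to -2.04 and -2.73 to -1.73. With the project block these calls were 0 to 19 and 0 to 24, and those of MHC class II genes 0 to 7. Each of these lists had 0 blocked calls without spermatogonia array 2, pre-leptotene array 2 or pre-leptotene array 3. The cause of these moves was not tested. Signals under log2 5 are near background, where folds are least certain.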
